A study of Mus musculus with 16 samples.

Results

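The regions described here are 338 stretches of the mouse genome that carried a Spi1 peak in every WT-iMOS library and in no KO-iMOS library. They were chosen by presence and absence of deposited peaks: the Spi1 peaks of 10 lists on chromosomes 1 to 19, X and Y were merged wherever they overlapped by 1 bp or more, and a region so formed was kept when all 4 KO-iMOS lists lacked a peak there and all 6 WT-iMOS lists had one. The 338 regions are 1.07% of the 31443 merged Spi1 regions. The absence of these regions from KO-iMOS lists is therefore the way they were selected and is not a finding. The opposite selection, with a peak in every KO-iMOS list and none in WT-iMOS lists, held 533 regions, or 1.7% of all merged regions. Coordinates are those of the deposited lists, on mm10 per the submitters' processing notes.

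The study profiled Spi1 and Bcl11a by CUT&Tag in MPP3, a class of myeloid-biased multipotent progenitors taken from mouse bone marrow by cell sorting, to learn how Bcl11a acts there. Spi1 was profiled in KO-iMOS mice, with 2 T2 and 2 T1 libraries, and in WT-iMOS mice, with 3 T2 and 3 T1 libraries. Bcl11a was profiled in WT-iMOS mice only, with 3 T2 and 3 T1 libraries. The series title and design name Bcl11a as the gene under study, but the labels do not spell out iMOS, the knocked-out gene, T1, T2 or the 3m that every title carries, and they do not say whether replicates came from separate animals. For this reason the p-values below speak only to variation among the deposited libraries, which may be technical. The names of single peaks carry the letters PKO for KO-iMOS T2 and PWT for KO-iMOS T1, whereas WT-iMOS Spi1 peaks carry PMG for T2 and PWG for T1. The labels do not explain these letters, and libraries were grouped by their labels. In a check added after the data were seen, the rule gave 468 regions against the KO-iMOS T2 lists alone and 386 against the KO-iMOS T1 lists alone. Each of these sets holds all 338 regions by construction, since fewer lists had to be empty, so this says nothing about the grouping.

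Spi1, also called PU.1, is an ETS-family transcription factor that binds DNA around a GGAA core and is required for the making of myeloid and B cells. In progenitors much of its binding lies at enhancers, away from gene starts. Bcl11a is a zinc finger transcription factor that acts mainly as a repressor, keeps fetal globin genes off in adult red cells, and is needed for B cell and dendritic cell development. In CUT&Tag an antibody brings a transposase to the bound factor, so that nearby DNA is cut and tagged, and a peak is a stretch where tagged fragments pile up. Tall signal in CUT&Tag can also come from repeats or from sequence present in more copies than the assembly shows.

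The KO-iMOS lists differed from the WT-iMOS lists in several ways that are not specific to these regions. They held 6372 to 20241 peaks, against 5068 to 12261 in the WT-iMOS Spi1 lists, and 3 of the 4 were longer than every WT-iMOS list. The narrowest peak of a list was 250 to 321 bp wide in KO-iMOS lists and 202 to 220 bp wide in WT-iMOS Spi1 lists. Peaks on X made up 1.45 to 1.71% of KO-iMOS lists and 2.09 to 2.40% of WT-iMOS Spi1 lists. All 4 KO-iMOS lists had peaks in the first 3 Mb of Y, 1 to 6 per list, and a peak at Eif2s3y, a Y-linked gene of a translation factor subunit, stood in both T1 lists. Of the 6 WT-iMOS Spi1 lists only T2 replicate 1 had peaks there, 2 in number, and neither lay at Eif2s3y. Over the whole of Y, however, WT-iMOS Spi1 lists had 8 to 16 peaks and KO-iMOS lists 4 to 13. The labels give no sex, and the part of these differences in the selection of the 338 regions was not tested. Selection also depended on list length: with every Spi1 list shortened to the strongest 4926 peaks on assembled chromosomes, the length of the shortest, the rule gave 280 regions, of which 136 were among the 338.

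At the chosen regions Bcl11a peaks were common. A Bcl11a peak overlapped 93.8, 72.2 and 78.4% of them in the 3 T2 libraries and 87.9, 78.4 and 80.5% in the 3 T1 libraries. At the other 2071 Spi1 regions called in all 6 WT-iMOS lists, which also had a peak in 1 to 4 KO-iMOS lists, the shares in the same order were 31.9, 32.8 and 34.1% in T2 and 40.8, 57.6 and 62.9% in T1. The chosen regions had the higher share in each of the 6 libraries, and the 6 shares of one set did not overlap those of the other.

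The mean share was 81.9% ± 7.72 at the chosen regions and 43.3% ± 13.5 at the others (SD, n = 6 Bcl11a libraries). The mean difference within a library was 38.5 percentage points ± 16.8 (SD), with an exact two-sided sign-flip permutation p = 0.03125, the smallest that 6 libraries allow. Adjusted by Benjamini-Hochberg over the 2 exact tests made on Bcl11a shares, it was 0.0625, so the difference did not pass 0.05 after correction. With this number of libraries the adjusted value cannot go lower, so that outcome was fixed in advance and decides nothing. In comparisons added after the data were seen, the difference was 36.7 points when only regions more than 1 kb from a gene boundary and off promoter windows were compared, 41.9 points without regions that bore a sign of repeat signal, and 39.1 points on autosomes. Leaving out regions with a sign did not treat the sets alike. It removed 22.7% of the others and 16.6% of the chosen regions, and closeness was counted only within a set. What this adds to the 41.9 points was not tested. All 6 Bcl11a lists came from WT-iMOS mice, as did the Spi1 lists that chose the regions. Their narrowest peaks, 196 to 225 bp, were also below those of every KO-iMOS list. What this shared origin adds to the overlap was not tested.

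**Figure D1:**
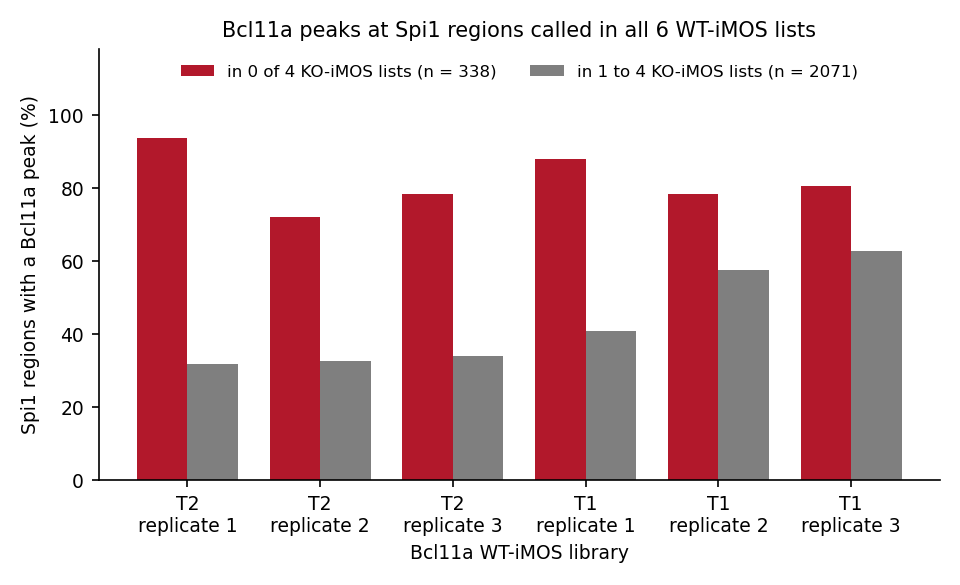
Percentage of Spi1 regions with a Bcl11a peak (y axis) in each Bcl11a WT-iMOS library (x axis), for the 338 regions in 0 of 4 KO-iMOS lists (red) and the 2071 regions in 1 to 4 KO-iMOS lists (grey), all called in all 6 WT-iMOS Spi1 lists. The red bar is the taller in each of the 6 libraries, between 72.2 and 93.8%, while the grey bars lie between 31.9 and 62.9%.

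Counted by region, 155 of the 338 had a Bcl11a peak in all 6 lists, 80 in 5, 51 in 4, 33 in 3, 10 in 2, 7 in 1 and 2 in none. A Bcl11a peak in at least 5 of 6 lists was thus found at 235 regions, or 69.5%, against 618 of the other 2071, or 29.8%. The background was 35.4% over all Spi1 regions called in 6 WT-iMOS lists, and 4.66% over all merged Spi1 regions. Of the 618 regions called in 6 WT-iMOS Spi1 lists that had no Bcl11a peak in any list, 2 belonged to the chosen set, or 0.324%. Both lay inside a gene, one in Usp33, which encodes a deubiquitinating enzyme, and one in Snx29, which encodes a sorting nexin.

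The share with Bcl11a did not fall evenly with the number of KO-iMOS lists that held a region. Averaged over the 6 Bcl11a lists it was 81.9% at the 338 regions in 0 KO-iMOS lists, 88.9% at the 120 in 1, 73.2% at the 119 in 2, 53.2% at the 337 in 3 and 35.1% at the 1495 in 4. Regions in 1 KO-iMOS list, just outside the rule, thus had the higher mean share. At the other edge of the rule the share was lower. The 304 regions in 0 KO-iMOS lists and 5 of 6 WT-iMOS lists had a mean share of 60.6%. Bcl11a was in at least 5 lists at 35.9% of these 304, against 69.5% of the chosen regions and 86.7% of the 120.

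**Figure D2:**
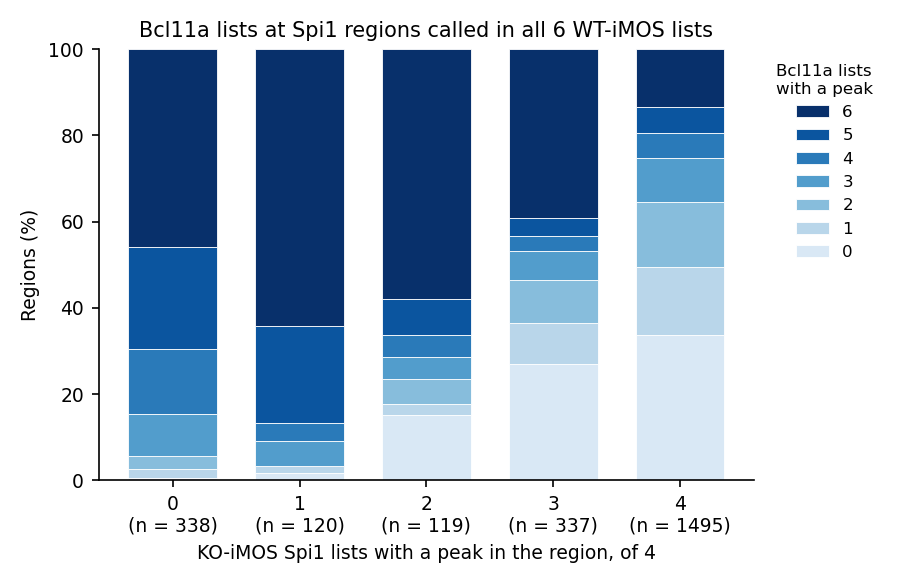
Percentage of regions (y axis) with a peak in 0 to 6 Bcl11a lists (light to dark), by the number of KO-iMOS Spi1 lists with a peak (x axis), for Spi1 regions called in all 6 WT-iMOS lists. Regions with no Bcl11a peak are 0.592% of the 338 regions at 0 KO-iMOS lists, and the darkest part, all 6 Bcl11a lists, is larger at 1 KO-iMOS list (64.2%) than at 0 (45.9%).

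Between T2 and T1 the Bcl11a shares overlapped. The mean share of chosen regions with a Bcl11a peak was 81.5% ± 11.1 in T2 and 82.2% ± 4.98 in T1 (SD, n = 3 each). The difference of -0.789 percentage points had an exact two-sided permutation p = 0.9, also 0.9 after adjustment over the 2 tests, in a design that cannot go below 0.1. The sign depended on the lists: with every Bcl11a list shortened to its strongest 2605 peaks, T2 was 17.1 points above T1 (exact p = 0.3). At some chosen regions Bcl11a was called in only 1 of these groups. With 0 T1 lists, a peak stood in 3, 2 and 1 T2 lists at 5, 2 and 5 regions. With 0 T2 lists, it stood in 3, 2 and 1 T1 lists at 2, 1 and 2 regions. Of the 2 regions with all 3 T1 lists and 0 T2 lists, 1 lay 9596 bp from Il17a, the gene of a T cell cytokine. It was picked after its values were seen. The same counts over the other regions are not given here, so these have no background beside them.

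Where a Bcl11a peak lay in a chosen region, it stood in the upper part of its own list. The median percentile of such peaks, ranked within the list by the deposited −log10 p with 100 as the strongest, was 69.4 to 83.3 over the 6 libraries, against 76.9 to 85.5 for Bcl11a peaks at the other regions. The percentile was lower at the chosen regions in 5 of 6 libraries, the exception being T1 replicate 1. Their median fold enrichment, the authors' value for signal over local background, was 6.08 to 6.95 at the chosen regions and 5.17 to 6.13 at the others, and it was higher at the chosen regions in 6 of 6 libraries. The rank by −log10 p and the fold thus ordered the sets differently, and the median width of the Bcl11a peaks was 363.5 to 456 bp at the chosen regions and 449 to 515 bp at the others, narrower in 5 of 6 libraries with T2 replicate 1 the exception.

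The chosen regions lay far from gene starts. None of them touched a promoter window, the 300 bases around an annotated start, although 507 of the other 2016 regions on the same chromosomes did (25.1%). Windows were given for the chromosomes of 322 of the 338 regions. By the rule of 3 over the number of regions, a count of 0 has an approximate 95% upper limit of 0.932%, counting error only. By distance from a region's midpoint to a start, the nearest windows belong to Gm33862, a predicted long noncoding RNA gene at Sfi1, to Gm46913, a predicted gene beside Tbc1d1, and to Adamts12, which encodes a secreted metalloprotease. They are printed to show what lies closest, beside the window of Rgs19, a regulator of G-protein signalling, which sits inside a region of all 10 Spi1 lists with a mean percentile of 97.2 over the WT-iMOS lists. Sequences are RefSeq promoter windows of GRCm38.p6, 5′ to 3′ on the strand of the gene. Capitals mark GGAA, or its reverse complement TTCC, and the longer GAGGAAGT where it occurs.
Gm33862: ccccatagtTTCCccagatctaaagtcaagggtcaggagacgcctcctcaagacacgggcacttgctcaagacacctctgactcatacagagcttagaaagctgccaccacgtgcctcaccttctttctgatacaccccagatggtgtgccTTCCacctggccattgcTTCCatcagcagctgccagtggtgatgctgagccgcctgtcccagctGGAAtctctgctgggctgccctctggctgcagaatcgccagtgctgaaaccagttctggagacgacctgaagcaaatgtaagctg
Gm46913: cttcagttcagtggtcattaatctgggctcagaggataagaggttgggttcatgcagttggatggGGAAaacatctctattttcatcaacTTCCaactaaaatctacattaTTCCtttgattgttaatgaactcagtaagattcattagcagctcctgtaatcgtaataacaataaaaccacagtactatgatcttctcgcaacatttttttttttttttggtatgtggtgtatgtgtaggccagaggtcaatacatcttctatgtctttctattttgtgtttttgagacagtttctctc
Adamts12: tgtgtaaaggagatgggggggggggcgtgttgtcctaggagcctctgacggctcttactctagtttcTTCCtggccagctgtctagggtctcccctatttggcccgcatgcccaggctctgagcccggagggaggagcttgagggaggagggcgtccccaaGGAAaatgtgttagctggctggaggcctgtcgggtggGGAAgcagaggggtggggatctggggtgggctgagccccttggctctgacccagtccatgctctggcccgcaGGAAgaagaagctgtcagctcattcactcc
Rgs19: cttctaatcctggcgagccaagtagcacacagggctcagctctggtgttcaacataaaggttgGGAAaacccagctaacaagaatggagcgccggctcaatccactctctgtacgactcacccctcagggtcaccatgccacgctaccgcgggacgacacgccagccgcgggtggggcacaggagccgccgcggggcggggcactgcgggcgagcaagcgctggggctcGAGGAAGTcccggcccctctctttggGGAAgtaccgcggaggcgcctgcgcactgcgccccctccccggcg

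The window of Gm33862, at chr11:3136826-3137125 on the plus strand, lay 122 bp from its region at chr11:3137247-3137515, which had a Bcl11a peak in 4 of 6 lists. The window of Gm46913, at chr5:64247056-64247355 on the plus strand, lay 216 bp from its region at chr5:64247571-64248424, which had a Bcl11a peak in 5 of 6 lists. That of Adamts12, at chr15:11064523-11064822 on the plus strand, lay 443 bp from its region at chr15:11063554-11064080, also with Bcl11a in 5 of 6 lists. None of these 3 windows holds GAGGAAGT on either strand. The Rgs19 window, at chr2:181693928-181694227 on the minus strand, holds it once. Searched on both strands, GAGGAAGT was present in 3.20% of all 32851 windows and in 13.4% of the 729 windows touched by the other regions. The shorter GGAA was present in 96.0% of all windows. No genome sequence was used, so the letters of the 338 regions themselves were not searched.

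The chosen regions were farther from gene boundaries, at the median, than the other regions. By midpoint, 6 of the 338 regions, or 1.78% (exact 95% interval 0.654 to 3.82%, counting error only), lay within 1 kb of either boundary of a protein-coding gene, against 566 of the other 2071, or 27.3%. Over all merged Spi1 regions the share was 24.4%. The 6 were at Sfi1, Adamts12, Ms4a4a, Slc30a4, Polr3k and Tbc1d1. The median distance to a gene boundary was 34002 bp for the chosen regions and 8858 bp for the others, and the median distance to the start in a promoter window was 31800.5 bp against 9907 bp.

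Inside a gene lay 154 of the chosen regions, or 45.6%, against 51.8% of the others. Exons, introns and UTRs were not told apart, since the annotation used gives gene boundaries alone. More than 100 kb from any protein-coding gene lay 66 regions, or 19.5%, against 7.68% of the others. Just outside the rule, 6 of the 120 regions held by a single KO-iMOS list were within 1 kb of a gene boundary, as were 12 of the 304 that no KO-iMOS list and all but one WT-iMOS list held (3.95%). Of the 533 regions of the opposite selection 36.6% were within 1 kb of a gene boundary, and 1.13% had Bcl11a in at least 5 lists.

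**Figure D3:**
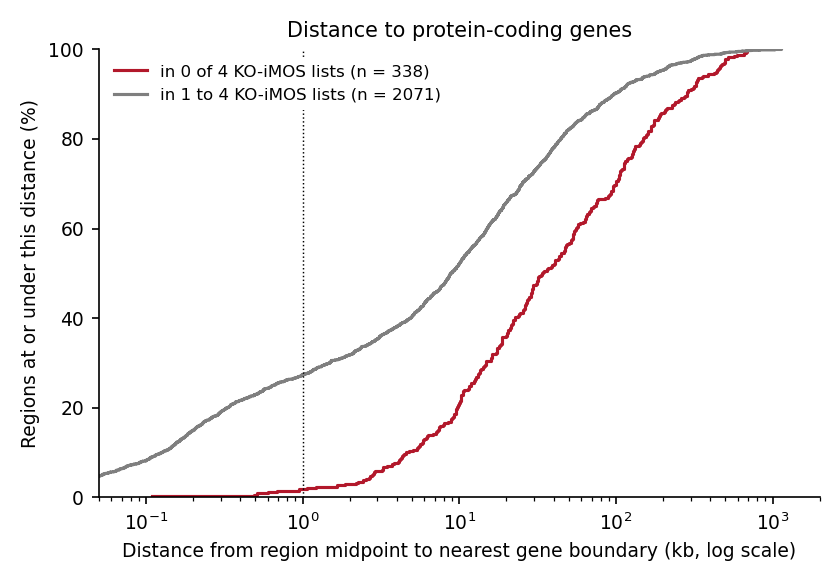
Cumulative percentage of regions (y axis) at or under a given distance from the region's midpoint to the nearest boundary of a protein-coding gene (x axis, kb, log scale), for the 338 regions in 0 of 4 KO-iMOS lists (red) and the 2071 in 1 to 4 (grey). At the dotted line, 1 kb, the red curve is at 1.78% and the grey curve at 27.3%.

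No gene of the lists used here had a chosen region in it or within 10 kb. Of 296 genes in 12 lists, which cover known Spi1 targets, the blood lineages, stem and progenitor cells, cell division, interferon and inflammation, housekeeping and tissues other than blood, 0 had a chosen region in the gene body or within 10 kb of it. Over all 21887 protein-coding genes 207 had one, or 0.946%, a share so low that 0 of 296 says little by itself. The other 2071 regions, which are more numerous, stood at 56 of the 296 list genes, or 18.9%, and at 8.94% of all protein-coding genes. They touched 12 of 36 Spi1 target genes, 8 of 30 stem and progenitor genes and 10 of 24 interferon and inflammation genes, while the chosen regions touched 0 of each.

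The list genes closest to a chosen region were the interferon receptor genes Ifngr2 and Ifnar1, 12225 and 24062 bp away, and both distances refer to a single region between them at chr16:91534585-91534834. Its Spi1 fold was 10.2 at the lowest, 11.5 at the median and 13.7 at the highest of the 6 WT-iMOS lists, and it had a Bcl11a peak in all 6 lists. The next were Epb41, a red cell membrane skeleton gene, at 26730 bp, Camp, a granule peptide gene of neutrophils, at 31608 bp and Cd79a, a chain of the B cell receptor, at 33585 bp. Leaving out one Spi1 library at a time let in 0 to 2 list genes: Ncf4, Cybb, Cdk6 and Il2ra appeared when a WT-iMOS T2 library was dropped, Rps18, Ank1 and Lepr when a KO-iMOS T1 library was dropped.

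In strength the chosen regions were middling within the WT-iMOS lists. The median percentile of their Spi1 peaks by −log10 p was 59.1, 54.8 and 60.9 in the 3 T2 libraries and 64.3, 62.8 and 74.985 in the 3 T1 libraries. At the other regions it was 89.6, 81.1 and 72.3 in T2 and 87.8, 81.5 and 78.9 in T1. The chosen regions had the lower median in each library, by the least in T1 replicate 3. These values come from the lists that chose the regions and are given without a test.

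Peaks at the chosen regions were also narrower and less tall in 5 of 6 libraries, T1 replicate 3 being the exception in both. Their median fold was 5.99 to 6.56 over the 6 libraries against 6.45 to 9.50 at the others, and their median peak width was 380 to 489.5 bp against 421 to 645 bp. Merged over the lists, the regions were 230 to 2070 bp wide with a median of 632.5 bp, against 875 bp for the others. The summits of the 6 lists were spread over a median of 195.5 bp in the chosen regions and 128 bp in the others.

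Spi1 percentiles at these regions were lower in T2 than in T1 libraries. The T2 and T1 medians given above did not overlap at the chosen regions but did at the others. All 3 T2 lists ranked below all 3 T1 lists at 62 of the 338 regions, or 18.3%, against 6.08% of the others and 7.8% of all regions called in 6 WT-iMOS lists. The opposite order was found at 7 regions, or 2.07%, against 3.72% of the others and a background of 3.49%. Percentiles are relative to each list, and no test was made of this difference.

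**Figure D4:**
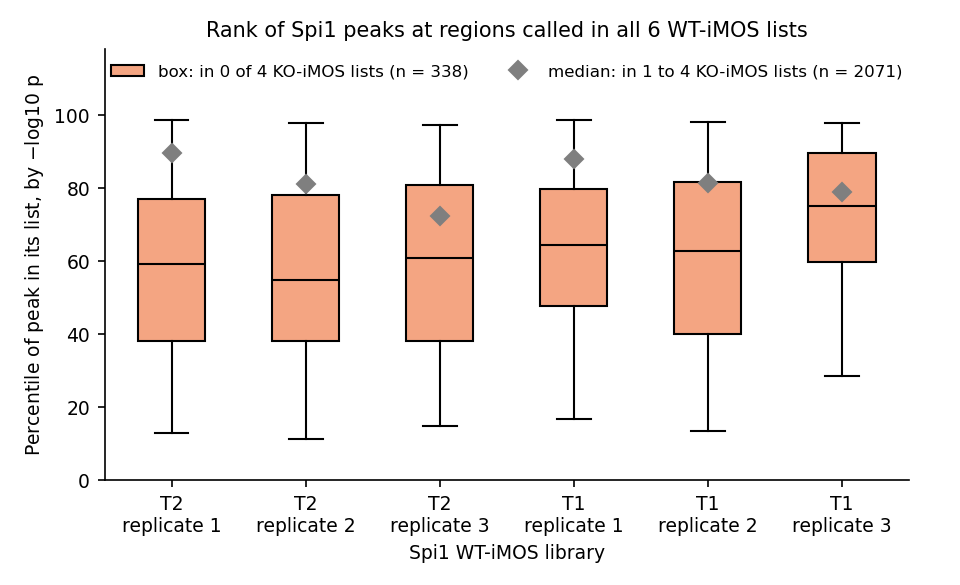
Percentile of the Spi1 peak within its own list by −log10 p (y axis) in each WT-iMOS Spi1 library (x axis). Boxes show the median and quartiles of the 338 regions in 0 of 4 KO-iMOS lists, whiskers their 5th to 95th percentiles, and grey diamonds the median of the 2071 regions in 1 to 4 KO-iMOS lists, which lies above the box median in all 6 libraries.

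Most of the strongest chosen regions were tall, narrow spikes. At the top by mean percentile was chr13:120321364-120321696, which lay 3269 bp from Tcstv3, a gene of a family first described in early embryos. Its Spi1 fold was 34.1 at the lowest, 35.6 at the median and 37.0 at the highest of the 6 WT-iMOS lists, and its percentile was 99.4 to 99.8. All 6 peaks were 275 to 328 bp wide, their summits fell within 18 bp of each other, and a Bcl11a peak was present in all 6 lists.

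Very similar peaks followed in rank. Inside Dop1b, a membrane trafficking gene, chr16:93789191-93789452 had folds of 28.9, 29.4 and 31.4 at the lowest, median and highest, with summits within 12 bp. At 14914 bp from Dpy19l2, which is needed for sperm head formation, chr9:24542019-24542248 had folds of 32.3, 33.8 and 36.1 and summits within 7 bp. These 2 differed in Bcl11a, which had a peak in all 6 lists at Dop1b and in 3 at Dpy19l2.

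The largest mean fold, 36.4, was at chr11:121982322-121982613, with folds of 36.0 to 37.3 over the 6 lists, 57139 bp from the predicted gene Gm9631. Folds of 30.3 to 33.4 were found 69562 bp from Creb3l1, which encodes a membrane-bound transcription factor, and folds of 32.0 to 37.4 were found 499221 bp from 1700008P02Rik. Both had Bcl11a in all 6 lists. Among the rest of the 10 highest ranks, a region 456248 bp from Diaph3, a formin that assembles actin, had a mean fold of 30.5. One inside Slc45a1, a sugar transporter, had a mean fold of 26.3. One 51938 bp from Gm45988 had a mean fold of 8.23 and a mean peak width of 453 bp, and so was not of this shape. On Y, one 253471 bp from Gm3376 had a mean fold of 32.7. A further spike, 18775 bp from the sulfotransferase gene Chst2, had a mean fold of 23.8 and Bcl11a in 5 lists. The nearest gene is a name for the place, and no expression was measured.

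A mean fold of at least 15 with a mean width under 400 bp, a definition made after the values were seen, was met by 27 of the 338 regions, or 7.99%, and by 35 of the other 2071, or 1.69%. The 27 lay on 15 chromosomes, and 10 of them were inside a gene. Their mean widths were 222 to 360 bp, their summits were spread over a median of 18 bp, and 16 of them had Bcl11a in all 6 lists. Single peaks of this shape numbered 6 to 30 in KO-iMOS Spi1 lists, 63 to 87 in WT-iMOS Spi1 lists and 58 to 91 in Bcl11a lists. The shape was thus found under both antibodies in WT-iMOS libraries, and in every KO-iMOS list too. The median peak was wider in every KO-iMOS list than in any WT-iMOS list, so the width limit did not treat the lists alike. With no width limit, peaks with a fold of at least 15 numbered 28 to 109 in KO-iMOS Spi1 lists. They numbered 128 to 201 in WT-iMOS Spi1 lists and 116 to 160 in Bcl11a lists. The part of peak width in the contrast was not tested. Without regions of this shape and all other regions with a sign of repeat signal, the mean Bcl11a share was 80.7% at the chosen regions and 38.8% at the others. With them, the shares were 81.9 and 43.3%. The part of repeat signal in the Bcl11a overlap was not tested.

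A second small group had a low fold in spite of being called in every WT-iMOS list. Mean folds under 4 were found at 16 of the 338 regions, or 4.73%, against 1.64% of the others, and ranged from 2.13 to 3.88. Of these, 4 lay near the start of chromosome 9, at 3004511 to 3034011, and 301371 to 330573 bp from the nearest protein-coding gene, Alkbh8. Their lowest and highest folds over the 6 lists were 2.15 and 2.67, yet their mean percentiles by −log10 p were 95.4 to 98.0. All 4 had Bcl11a peaks in all 6 lists.

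KO-iMOS lists were not silent at that stretch of chromosome 9. They had 8 to 10 peaks within it, against 16 to 17 in WT-iMOS Spi1 lists and 14 to 19 in Bcl11a lists, and the nearest KO-iMOS peak was 292 to 987 bp from each of the 4 regions. Near the start of chromosome 11, 6 regions clustered at Sfi1, whose product binds centrin at the centrosome. There 4 of them were inside the gene with mean folds of 2.91 to 3.14, and 2 lay 27924 and 31337 bp outside it, the farther with a mean fold of 6.36. All 6 were 571 to 3404 bp from a KO-iMOS peak. Pairs of regions also stood within the first 4 Mb of chromosome 17, at 3014568 to 3018576, and of chromosome 3, at 3013303 to 3030354.

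**Figure D5:**
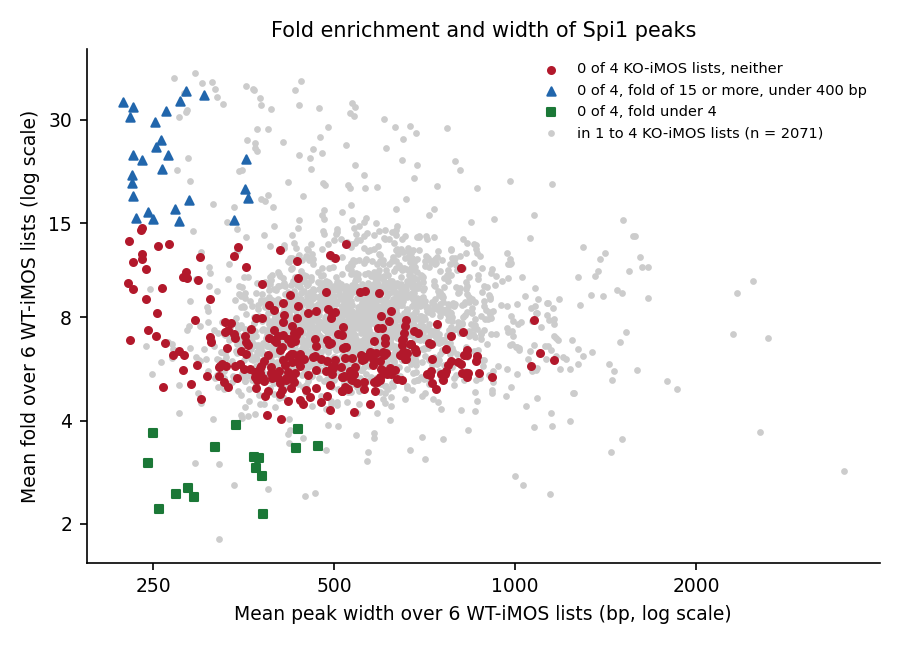
Mean fold enrichment (y axis, log scale) against mean peak width in bp (x axis, log scale) over the 6 WT-iMOS Spi1 lists, one point per region. Of the 338 regions in 0 of 4 KO-iMOS lists, blue triangles are the 27 with a fold of at least 15 and a width under 400 bp, green squares are the 16 with a fold under 4 and red points are the rest, over the 2071 regions in 1 to 4 KO-iMOS lists in grey. The triangles lie at the upper left, between 222 and 360 bp.

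Signs of repeat or artefact signal were counted by fixed limits. A merged width over 2000 bp was found at 2 of the 338 regions, or 0.592%, against 0.869% of the others. Another region of the same set lay within 20 kb at 20, or 5.92%, against 18.2%. A start within 4 Mb of position 1 of the chromosome was found at 17, or 5.03%, against 4.64%. A mean percentile of at least 99 was found at 8, or 2.37%, against 2.95%. That percentile with Bcl11a in all 6 lists was found at 6, or 1.78%, against 2.95%. Any of these was found at 35, or 10.4%, against 21.9% of the others. The 20 kb sign counted neighbours of the same set only, and the others are more numerous. The part of set size in this difference was not tested. With the tall spikes and the low folds added, 56 of the 338, or 16.6%, bore a sign, against 22.7% of the others.

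The remaining 282 regions bore none. They had mean folds of 4.03 to 14.6 with a median of 6.20, and a mean Bcl11a share of 80.7%, against 87.5% at the 56 with a sign. These signs use position, width, rank, fold and Bcl11a calls alone. Repeat annotation was not used here, and the part of repeat signal in the set was not tested.

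The widest regions were less alike between lists than the spikes. The widest, chr8:20946604-20948673, was 2070 bp wide, lay 2890 bp from AY761185 and had a median fold of 5.52 over the 6 lists. Its single peaks were 307 to 1700 bp wide, and its percentile was 16.5 in one list and 70.9 in another. On Y, chrY:90811947-90813970 was 2024 bp wide with percentiles of 84.1 to 97.2. The rest of the 5 widest were inside Fank1, a gene known from testis, inside Tatdn3, and 274147 bp from Snx16. Their median percentiles were 67.6 at Fank1, 56.2 at Tatdn3 and 54.2 at Snx16, and each had Bcl11a in all 6 lists.

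Closest together were a pair of the regions on chromosome 9 whose nearest gene was Alkbh8, at 3010846 to 3011116 and 3012138 to 3012432, with a gap of 1021 bp. A gap of 1133 bp separated a pair 51938 and 50389 bp from Gm45988 on chromosome 7, at 64078699 to 64079174 and 64080308 to 64080662. Their folds were 7.68 to 8.74 and 7.39 to 8.31 over the 6 lists, and both had Bcl11a in all 6. A gap of 1340 bp separated a pair 129739 bp and more from Prox1, which encodes a homeobox factor of lymphatic vessels. Most regions stood alone: the 338 had 321 different nearest genes.

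Of the Spi1 regions called in all 6 WT-iMOS lists, a larger share was chosen on chromosome X than on the autosomes. On the autosomes 318 of 2360 such regions were among the 338, or 13.5%. By single autosome the share ran from 6.25% on chromosome 2 (11 of 176) to 22.5% on chromosome 18 (16 of 71). On X it was 16 of 44, or 36.4%, and on Y 4 of 5. The lower share of X peaks in KO-iMOS lists and their peaks on the first 3 Mb of Y, given above, stand beside this count. The sex of the animals, the genotype and other differences between the libraries cannot be told apart here.

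Of the regions on X and Y, 6 lay at the ends that these chromosomes share. These were 2 at Mid1, the ubiquitin ligase gene that spans the boundary of the shared segment in mice, 1 inside Asmt, a melatonin synthesis gene, and 3 near Gm52481 on Y. Their nearest KO-iMOS peaks were 1316 to 4408 bp away. The region in Asmt had folds of 5.31, 6.45 and 7.15 at the lowest, median and highest and a Bcl11a peak in only 1 list, while the pair at Mid1 had Bcl11a in all 6. The strongest on X, 11326 bp from Mageb18, was a spike with folds of 18.0 to 26.4.

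How far the chosen regions were from KO-iMOS peaks varied widely. The nearest KO-iMOS peak was 292 bp away at the closest, 49698 bp at the median, within 5 kb at 42 regions and within 1 kb at 9. Without those 9 the set held 329 regions. Just inside the rule, the lowest mean percentile was 17.8 at a region 26662 bp from Mrpl1, a mitochondrial ribosomal protein gene. The next were 24.0 at one 67190 bp from Gm4907 and 24.0 inside Gm3411. At the Mrpl1 region the percentile was 8.65 at the lowest and 22.8 at the highest of the 6 lists.

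Just outside were 120 regions that a single KO-iMOS list and all 6 WT-iMOS lists held, and 304 that no KO-iMOS list and 5 WT-iMOS lists held. Their median percentiles were 68.3 and 42.1, on either side of the 58.6 of the chosen regions. The KO-iMOS peak of the 120 came from T2 replicate 1 at 43, T2 replicate 2 at 1, T1 replicate 1 at 35 and T1 replicate 2 at 41. The missing WT-iMOS peak of the 304 was that of T2 replicate 3 at 75 and of T1 replicate 3 at 23. The strongest of the 120 were near chromosome starts, with mean folds of 4.33, 4.47 and 7.75. Their nearest genes were Scaf8, Olfr161 and Hnf4g, 105983, 356249 and 496730 bp away. The strongest of the 304 were spikes 22476 bp from Ankle1, 202313 bp from Plk2 and 2102390 bp from Pcdh9. Their mean folds were 24.8, 21.6 and 21.7 over their 5 lists.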

How the data were processed

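CUT&Tag peak lists of 16 libraries were used, one per library, and no library was left out. Per the submitters' processing notes Bowtie2, SAMtools and MACS2 were used with mm10. Versions, settings and any peak control are not given in the sources used here. The authors deposited for every peak its position and summit, a whole-number score, a fold or ratio over local background, and 2 values on the −log10 scale, for p-value and q-value. All of them are the authors' own, described, ranked or filtered here only inside their list; the score was not used. Every deposited −log10 q was at least 2.00. Read depth is unknown, so list length (2719 to 20241 peaks) limits the precision of shares, and intervals cover counting error only.

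Peaks on 21 assembled chromosomes were merged at 1 bp overlap. In each list the peak with the highest −log10 p stood for a region. Genes were 21887 protein-coding genes of a RefSeq table on GRCm38.p6, the assembly of mm10; 17492 of them had a promoter window of 250 bases before to 50 after the start, and no window was used for chromosomes absent from that table. Bcl11a shares were compared over libraries by exact permutation. Python 3.11.15 with numpy 2.4.6, pandas 2.3.3, scipy 1.17.1, statsmodels 0.14.6 and matplotlib 3.10.9 was used, and merging, overlap and both tests were tested on simulated lists.

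The regions, gene lists, limits and tests were chosen with earlier results of these data known. Named regions were the 10 highest mean percentiles, up to 10 with Bcl11a in at least 5 lists, those at list genes, the 5 widest, the 5 closest together and the 5 with most signs, each called by its nearest protein-coding gene; others were chosen after their values were seen. Alternatives covered merging, summits, q-values, list length, left-out libraries and the T1 and T2 lists apart.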

Additional observations from a re-analysis of the deposited data

Results flagged for a closer look

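Outside the assembled chromosomes, unplaced contigs held 25 further regions with a Spi1 peak in 0 of 4 KO-iMOS lists and all 6 WT-iMOS lists, out of 207 merged regions there (12.1%), and 0 regions of the opposite kind. They are signal in data that the report does not use. KO-iMOS Spi1 lists had 35 to 69 peaks on contigs, WT-iMOS Spi1 lists 133 to 147 and Bcl11a lists 112 to 152, and the part of this difference in the count was not tested. Of 8 summaries over the 6 Spi1 WT-iMOS or 6 Bcl11a libraries, 0 had a library far from the others by Dixon's limit.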

How the results depend on the processing

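The number of regions was 339 to 413 when one Spi1 library was left out, and 250 to 339 under wider merging, summit distance, a −log10 q of at least 5, lists of equal length or no KO-iMOS peak within 1 kb. It was 700 from T2 lists alone and 827 from T1 lists alone, sets that need fewer lists. The Bcl11a difference between the chosen and the other regions was 34.9 to 46.8 points with other comparison regions, within 5 bins of rank, with stricter or shortened Bcl11a lists or with summits, higher in 6 of 6 libraries each time with an exact p = 0.03125. Without one Bcl11a library it was 33.8 to 42.7 points, higher in 5 of 5 libraries, with an exact p = 0.0625, the smallest that 5 libraries allow.

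The T2 minus T1 difference in Bcl11a share was 17.1 points with lists of equal length (exact p = 0.3), and -6.95 to 3.85 points without one library. With the replicate number as a block it was -0.789 points, with an exact sign-flip p = 0.75 where 3 pairs cannot go below 0.25. Deviations of same-numbered T2 and T1 libraries correlated at 0.28, 0.07 and 0.06 over 2409 regions. Those of differently numbered libraries correlated at -0.19 to 0.15. The replicate numbers are not known to pair libraries, so the main test used no pairs.

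Within 3 kb of a gene boundary lay 5.92% of the chosen regions. With looser limits, which count more regions by construction, 66 of them bore a sign of repeat signal. Without one Spi1 library 0 to 2 list genes had a region. Ranking by fold moved the mean of the library medians by less than the spread between libraries, to 63.0 from the percentile of 62.8 by −log10 p. The lists carry no read counts, so a missing KO-iMOS peak says only that none was called. Where signal fell just under the calling limit in KO-iMOS lists cannot be seen.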

Other observations

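Some of the chosen regions lay near genes of blood and immune cells that were in none of the gene lists; these were picked after their values were seen and support nothing about such genes as a group. Inside Fyb, the gene of an adaptor of T cells and platelets, chr15:6607854-6608594 had Spi1 folds of 4.74, 5.21 and 6.16 at the lowest, median and highest of the WT-iMOS lists and Bcl11a in all 6 lists. Inside Il34, a ligand of the macrophage growth factor receptor, chr8:110798946-110799388 had folds of 5.07 to 6.24 and Bcl11a in all 6. A region 110 bp from Ms4a4a, a membrane protein gene, had folds of 5.39 to 7.90 and Bcl11a in 2 of 3 T2 and 2 of 3 T1 lists. Farther out, folds were 9.02 to 15.2 at a region 176162 bp from Msr1, a macrophage scavenger receptor, and 5.07 to 7.52 at one 155277 bp from Maf, a transcription factor of macrophages. Bcl11a had a peak in 6 lists at the first of these and in 5 at the second.

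Near Rasal3, a Ras regulator of blood cells, a region 3477 bp away had a median fold of 4.33 and Bcl11a in 1 of 3 T2 and all 3 T1 lists. The region 20170 bp from Grb2, an adaptor of growth factor receptors, had folds of 4.93 to 8.45 and Bcl11a in 2 of 3 T2 and all 3 T1 lists.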
